A study of Mus musculus with 24 samples.

Results

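The 8 genes described here encode receptor chains for cytokines of the IL-12 and IL-1 families: Il12rb1, Il12rb2 and Il23r, Il18r1 and Il18rap, Il1rl1, and Il1r1 and Il1r2. They were chosen by symbol and found by their Ensembl IDs among the 39056 genes of the count table, and all 8 passed the low-count filter that kept 18789 genes for testing. Their RNA was measured by total RNA sequencing in CD4 T cells sorted from female mice of strain NZBWF1/j, a hybrid that develops a lupus-like disease. In the treated groups, mice aged 23 weeks had received recombinant mouse OX40L and mouse JAG1 (OX40L-JAG1), each at 2 mg/kg into the peritoneum, weekly for 3 doses, and in the control groups mice of the same age and sex had received PBS. Cells were taken at week 26. Each treatment gave 4 sorted subsets, which are conventional T cells (Tconv), regulatory T cells (Treg), follicular helper cells (TFH) and follicular regulatory cells (TFR), with 3 libraries in each of the 8 groups. All were CD4+. CXCR5 surface protein set the follicular pair (with high PD1) apart from the other pair, and GITR set the regulatory subsets apart from their GITR-negative or GITR-low counterparts, so FOXP3 was not used in the sort. Nothing in the labels states that the 3 libraries of a group are from different animals, and the p-values below rest on the spread of these 24 libraries alone, part of which may be technical. Treated and control libraries also differ in depth and quality, as given below, and the treatment cannot be told apart from how each set was handled.

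IL-12 and IL-23 share the chain encoded by Il12rb1, which pairs with Il12rb2 to bind IL-12 and with Il23r to bind IL-23; both receptors signal through JAK kinases and STAT factors, and IL-12 is known for driving IFN-γ production in T cells. The IL-1 family receptors pair a ligand-binding chain with an accessory chain and signal through MyD88, IRAK kinases and NF-κB. Il18r1 binds IL-18 and works with the accessory chain Il18rap, and Il1rl1 (ST2) binds IL-33 and is known as a marker of tissue regulatory T cells. Il1r1 is the signalling receptor of IL-1, whereas Il1r2 binds IL-1 without a signalling domain and acts as a decoy.

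With OX40L-JAG1 treatment the decoy chain Il1r2 was higher in all 4 subsets, with fitted folds of 3.45 in Tconv, 6.29 in Treg, 3.11 in TFH and 3.44 in TFR cells. Il12rb1 and Il18rap rose in Tconv cells, and Il18r1 rose in Treg cells and fell in TFH cells. Il12rb2 passed as higher in TFR cells, at 1.43 CPM or less against no read in controls. In Treg cells Il12rb2 was at 2.67 to 2.93 CPM in treated against 27.3 to 35.2 CPM in control libraries, but did not pass (adjusted p = 0.052, edgeR). Of the treatment calls, only those of Il1r2 in Treg and TFR cells and of Il18r1 in Treg cells were lost in no alternative fit. Between subsets, Il1rl1 and Il1r2 were higher in Treg than in Tconv cells and higher in TFR than in TFH cells, under both treatments. Il23r passed no test of treatment. In such bulk samples, fewer cells of a type and less RNA per cell cannot be told apart.

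Total counts, with M for mega, were 31.8 to 53.8 M in treated libraries, 24.7 to 33.2 M in control Tconv and Treg libraries, and 2.54 to 15.2 M in control TFH and TFR libraries. Levels are given as CPM, counts scaled to the TMM-adjusted library total, and 3 reads are worth 0.0533 to 0.0963 CPM in treated and 0.0951 to 1.16 CPM in control libraries. Mitochondrially encoded genes took 1.85 to 3.17% of the counts in treated and 9.5 to 16.9% in control libraries. Foxp3, the regulatory lineage factor, averaged 549 CPM in treated and 473 CPM in control Treg cells, and 561 CPM in treated and 354 CPM in control TFR cells. It averaged 11.9 CPM in treated and 5.81 CPM in control Tconv cells, and 50.8 CPM in treated and 47.3 CPM in control TFH cells. Cxcr5, the follicle-homing receptor whose protein was used in the sort, averaged 261 CPM in treated and 121 CPM in control TFH cells. It averaged 15.6 against 1.84 CPM in Tconv, 40.9 against 16.3 CPM in Treg and 136 against 53.7 CPM in TFR cells. Pdcd1, which encodes PD1, averaged 72.0 CPM in treated against 222 CPM in control Treg cells and 9.61 against 5.17 CPM in Tconv cells. In TFH cells it averaged 146 against 286 CPM and in TFR cells 142 against 369 CPM. Tnfrsf18, which encodes GITR, averaged 32.1 against 71.0 CPM in Tconv and 138 against 227 CPM in Treg cells. In TFH cells it averaged 48.5 against 82.5 CPM and in TFR cells 236 against 192 CPM. Kidney proximal tubule markers summed to 59.6 to 534 CPM in 5 libraries (treated Treg 3, treated TFH 3, treated TFR 1, control Tconv 1 and control Tconv 2) and to at most 18.2 CPM in the others.

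Of the members, 5 lie on mouse chromosome 1 (mm10) in 1 run of genes on the plus strand. From low to high coordinate these are Il1r2 (chr1:40074079-40125231), Il1r1 (chr1:40225080-40317257), Il1rl1 (chr1:40429570-40465415), Il18r1 (chr1:40465552-40500854) and Il18rap (chr1:40515362-40551705), with Il1rl2 between Il1r1 and Il1rl1, Map4k4 before the run and Slc9a4 after it. Il12rb2 (chr6:67291318-67376188) and Il23r (chr6:67422932-67491855) are neighbours on the minus strand of chromosome 6, next to Serbp1. Il12rb1 (chr8:70808449-70821424) stands alone among the members on the plus strand of chromosome 8, between Mast3 and Arrdc2. Exons of Il12rb2 share 1519 bases, 40% of its exon bases, with Serbp1 on the opposite strand. The strand setting of the counting is not given in the sources used here, so Il12rb2 values are uncertain: reads of Serbp1 and Il12rb2 in that stretch may be mixed or dropped.

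Promoter windows of 300 bases, from 250 before to 50 after a transcript start, were found for 7 of the 8 members in RefSeq (GRCm38.p6), 11 windows in all. The STAT motif TTCNNNGAA, the site form bound by factors downstream of IL-12, was found in 3 of them and in 8.29% of 32817 windows genome-wide. The Il12rb2 window (chr6:67376139-67376438, minus strand) has it at -123 from the start, the third Il18r1 window (chr1:40465756-40466055, plus strand) at -219 and -152, and the Il1r2 window (chr1:40085843-40086142, plus strand) at -111. The motif was not in the other Il18r1 windows or in that of Il18rap, which also passed a test of treatment. These 3 are shown because they hold the motif and each gene passed a test of treatment in at least 1 subset, with the matches in capitals.
Il12rb2: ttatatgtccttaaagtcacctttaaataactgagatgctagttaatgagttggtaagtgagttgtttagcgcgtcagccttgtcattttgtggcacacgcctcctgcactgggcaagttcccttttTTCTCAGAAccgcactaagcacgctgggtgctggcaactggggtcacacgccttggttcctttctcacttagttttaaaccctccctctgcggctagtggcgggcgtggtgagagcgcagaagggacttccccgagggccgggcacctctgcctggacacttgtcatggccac
Il18r1: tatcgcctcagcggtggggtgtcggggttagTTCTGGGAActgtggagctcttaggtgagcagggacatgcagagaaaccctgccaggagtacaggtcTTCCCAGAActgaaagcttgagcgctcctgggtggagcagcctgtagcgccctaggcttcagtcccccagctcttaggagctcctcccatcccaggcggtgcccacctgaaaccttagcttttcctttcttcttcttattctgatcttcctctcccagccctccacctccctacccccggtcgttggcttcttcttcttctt
Il1r2: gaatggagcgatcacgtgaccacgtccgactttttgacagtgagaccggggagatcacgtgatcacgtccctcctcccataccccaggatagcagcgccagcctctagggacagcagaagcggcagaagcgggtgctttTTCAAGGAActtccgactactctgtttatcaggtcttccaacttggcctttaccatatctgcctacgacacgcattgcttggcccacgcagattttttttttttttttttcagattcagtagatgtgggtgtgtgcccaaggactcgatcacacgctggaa
The GATA motif AGATAA occurs in both Il1rl1 windows and in 11.2% of all windows. The first Il1rl1 window (chr1:40429320-40429619, plus strand), shown because Il1rl1 levels separate regulatory from other cells, has it at -217, in capitals.
Il1rl1: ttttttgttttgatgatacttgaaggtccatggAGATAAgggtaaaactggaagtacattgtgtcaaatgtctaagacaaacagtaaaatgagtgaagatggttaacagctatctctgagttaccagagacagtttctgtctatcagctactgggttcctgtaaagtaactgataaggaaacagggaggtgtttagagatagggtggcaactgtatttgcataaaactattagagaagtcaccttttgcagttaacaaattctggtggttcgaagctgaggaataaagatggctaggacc
The second Il1rl1 window also holds the forkhead motif TGTTTAC, present in 3.65% of all windows, on the reverse strand. The Notch-pathway motif GTGGGAA (RBPJ) was in the Il23r window only, at 7 bases from the start, against 6.39% of all windows, and the AP-1 motif TGANTCA was in no member window, against 7.81%. All motifs were searched on both strands, and a match is a run of letters, not a measured site.

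**Figure D1:**
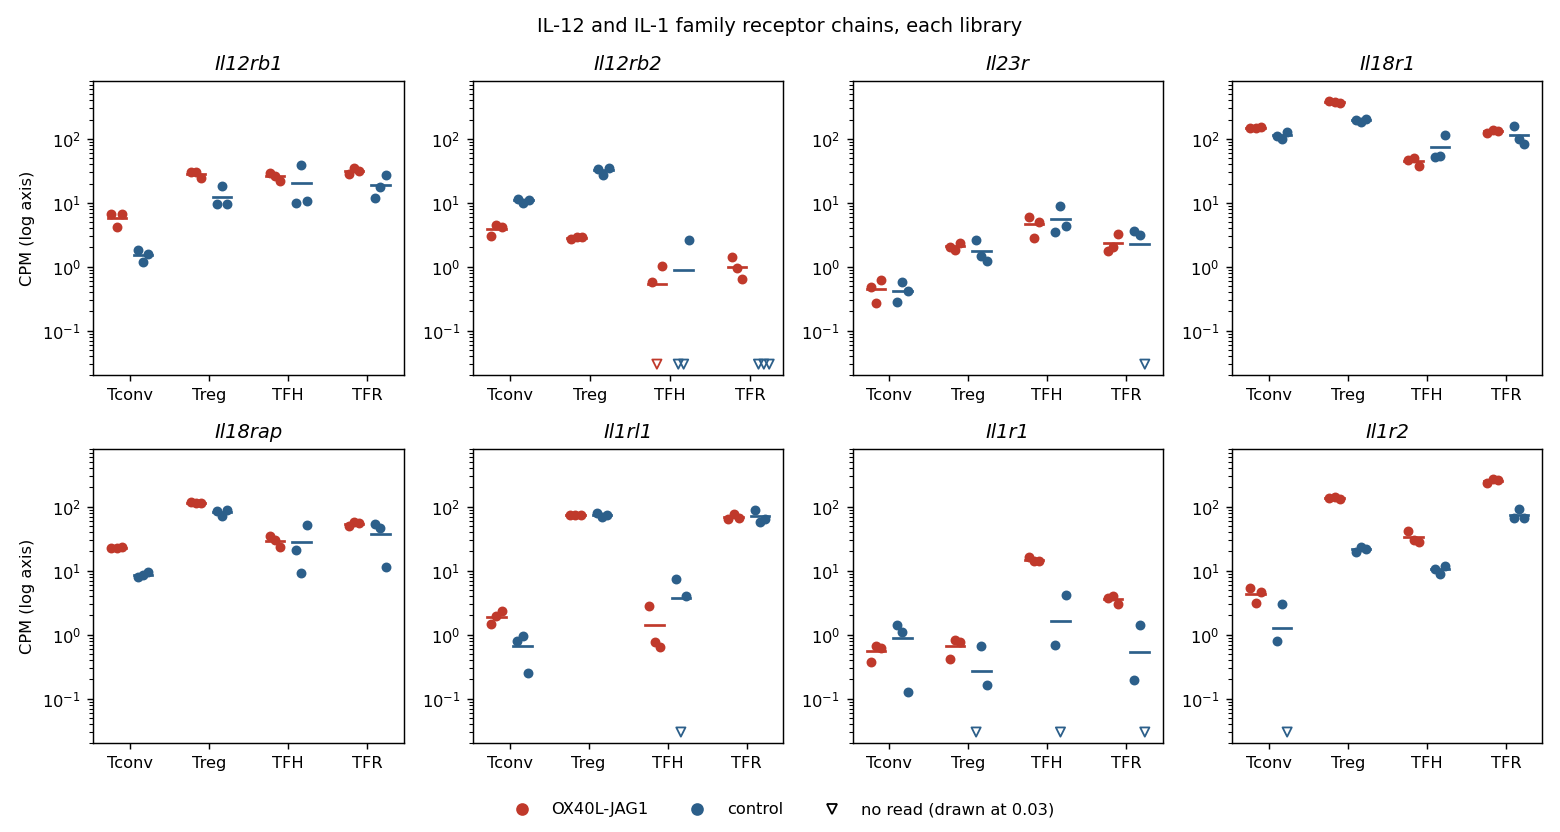
CPM of each member in each library (log axis) by subset, OX40L-JAG1 left of control. Bars are means of 3 libraries, and open triangles mark libraries without a read. Il1r2 is higher in the treated libraries of every subset, and Il1rl1 is at 57.1 to 90.1 CPM in all Treg and TFR libraries.

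Il12rb1, the chain shared by the IL-12 and IL-23 receptors, had 6.60, 4.15 and 6.65 CPM in treated Tconv libraries, against 1.83, 1.18 and 1.58 CPM in control Tconv libraries. All treated libraries were above all control libraries, and Il12rb1 rose with a log2 fold change of 1.92 ± 0.45 (SE; edgeR quasi-likelihood test, Benjamini-Hochberg adjusted p = 0.0067). Without the libraries with kidney transcripts, which leaves 1 control Tconv library, the log2 fold change was 1.88 with an adjusted p of 0.33. In Treg cells it had 30.0, 29.9 and 24.6 CPM in treated libraries and 9.42, 18.2 and 9.72 CPM in control libraries. These ranges did not overlap either, and the log2 fold change of 1.18 ± 0.43 did not pass (adjusted p = 0.11 by edgeR), though it passed in a fit of only the Treg groups (adjusted p = 0.0022). TFH cells averaged 25.9 ± 3.7 CPM in treated and 20.04 ± 16.8 CPM in control libraries (SD, n = 3 each), with 39.4 CPM in control TFH 2 above every treated library. The TFH log2 fold change was 0.40 (adjusted p = 0.52, edgeR), and without control TFH 2 it was 1.32 (adjusted p = 0.013). TFR cells averaged 31.4 ± 3.4 CPM in treated and 18.7 ± 7.5 CPM in control libraries (SD, n = 3 each), with a log2 fold change of 0.76 ± 0.43 and an adjusted p of 0.22 by edgeR. Ranked by mean, neighbouring groups among the 6 highest overlapped, and only the Tconv groups stood below the others without overlap.

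Il12rb2, the chain particular to the IL-12 receptor, had 2.67, 2.93 and 2.92 CPM in treated Treg libraries, against 33.9, 27.3 and 35.2 CPM in control Treg libraries. Every control library lay far above every treated one. The log2 fold change was -3.50 ± 1.09, with an adjusted p of 0.052 in the edgeR fit of all 24 libraries, just outside the threshold of 0.05. It passed in 5 other fits, among them DESeq2 (adjusted p = 0.00035) and edgeR on the Treg groups alone (adjusted p = 4.7e-08), but not when any Treg library was left out (adjusted p 0.11 to 0.18). In Tconv cells the values were 3.00, 4.42 and 4.18 CPM in treated libraries and 11.5, 9.96 and 11.1 CPM in control libraries. Those ranges also lay apart, the log2 fold change was -1.49 ± 1.01, and the adjusted p was 0.42 in the fit of all libraries and 0.0012 in the fit of the Tconv groups alone. Serbp1, the overlapping gene, had a log2 fold change of 0.16 ± 0.10 in Treg and 0.44 ± 0.10 in Tconv cells, opposite in sign to Il12rb2.

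In follicular cells Il12rb2 was near the lower end of what these libraries can show. It had 1.43, 0.954 and 0.633 CPM in treated TFR libraries and no read in the 3 control TFR libraries. Set against 3 reads over the control group (0.121 CPM), treated TFR cells were at least 8.49-fold higher, with an adjusted p of 0.016 by edgeR. That call ended without the libraries with kidney transcripts (adjusted p = 0.052), without control TFR 1 (adjusted p = 0.052) and under voom (adjusted p = 0.13). Serbp1 also rose in TFR cells, to 760 CPM in treated against 450 CPM in control libraries. TFH libraries held 0.576, 0 and 1.04 CPM when treated, and 0, 0 and 2.66 CPM in controls, where a single library carried all the reads. In order of mean level, control Treg, control Tconv, treated Tconv and treated Treg were each separated from the next without overlap, and all 4 follicular groups were lower than these.

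Il23r, which completes the IL-23 receptor and is known from IL-17-producing cells, was at most 8.89 CPM in any library. TFH cells had 5.93, 2.82 and 5.05 CPM in treated libraries and 3.48, 8.89 and 4.36 CPM in control libraries. Tconv cells were at the other end, with 0.479, 0.267 and 0.613 CPM in treated libraries and 0.278, 0.571 and 0.412 CPM in control libraries. In both subsets the treatments overlapped. The treatment log2 fold changes of Il23r ran between -0.26 ± 0.85 in TFH and 0.23 ± 0.85 in Treg cells, each smaller than its SE. Il23r was higher in TFH than in Tconv cells, by 3.33 ± 0.93 in treated mice (adjusted p = 0.015) and 3.70 ± 0.95 in control mice (adjusted p = 0.0071), as log2 fold changes from edgeR. The control contrast was lost without the kidney libraries (adjusted p = 0.18) and in the fit of those groups alone (adjusted p = 0.058). The treated one was lost without treated Tconv 1 or treated Tconv 2 (adjusted p 0.063 to 0.087) and without the libraries holding tubule markers (adjusted p = 0.068).

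Il18r1, the IL-18 binding chain, was the most abundant member in Tconv and Treg cells per length of exon. It had 394, 381 and 369 CPM in treated Treg libraries, against 196, 183 and 206 CPM in control Treg libraries. The groups lay far apart relative to their spread, and Il18r1 rose with a log2 fold change of 0.97 ± 0.23 (adjusted p = 0.0071, edgeR), a call that no alternative ended. In TFH cells it had 46.8, 50.6 and 37.4 CPM in treated libraries, against 51.5, 53.7 and 115 CPM in control libraries. The groups did not overlap, but control TFH 3 stood well above the other control libraries. Il18r1 fell by 0.73 ± 0.23 on the log2 scale (adjusted p = 0.027, edgeR). Without control TFH 3 the log2 fold change was -0.22 (adjusted p = 0.37), without treated TFH 3 it was -0.62 (adjusted p = 0.11), and without the kidney libraries -0.61 (adjusted p = 0.13). Tconv cells averaged 149 ± 5 CPM in treated and 113 ± 14 CPM in control libraries, and TFR cells 131 ± 8 CPM in treated and 114 ± 38 CPM in control libraries (SD, n = 3 each). Neither passed the test, with adjusted p-values of 0.28 and 0.54 by edgeR.

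Il18rap, the accessory chain that IL-18 signalling needs, had 22.3, 22.6 and 23.7 CPM in treated Tconv libraries, against 7.87, 8.67 and 9.38 CPM in control Tconv libraries. The groups were well separated and Il18rap rose with a log2 fold change of 1.40 ± 0.43 (adjusted p = 0.040, edgeR). This call lies close to the threshold: it was lost without any of the 6 Tconv libraries (adjusted p 0.064 to 0.14) and without the kidney libraries (adjusted p = 0.61), while its log2 fold change stayed between 1.25 and 1.47 over all fits. Treg libraries had 116, 115 and 114 CPM when treated and 85.9, 71.0 and 87.9 CPM in controls, a log2 fold change of 0.50 ± 0.42 that did not pass (adjusted p = 0.60, edgeR). TFH libraries had 23.1 to 35.1 CPM when treated and 9.27 to 52.6 CPM in controls, and TFR libraries had 50.6 to 56.7 CPM when treated and 11.4 to 54.6 CPM in controls. The follicular control libraries spread widely and overlapped the treated ones, and neither contrast passed (adjusted p = 0.97 in TFH and 0.38 in TFR cells, edgeR).

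Genes of CD8 and NK cells, which also use the IL-12 and IL-18 receptors, moved with treatment and are given beside these results. The 8 markers of that list summed to 83.8 to 88.7 CPM in treated and 27.9 to 38.8 CPM in control Tconv libraries, with reads for 6 or 7 of the 8 genes in each. Most of the sum came from the cytotoxic genes Prf1, at 52.9 CPM in treated and 15.6 CPM in control Tconv cells, and Gzma, at 22.5 CPM in treated and 7.63 CPM in control Tconv cells. Cd8b1 averaged 10.4 CPM in treated and 7.93 CPM in control Tconv cells, Cd8a 0.272 CPM in treated and 0.354 CPM in control Tconv cells, Ncr1 0.0336 CPM in treated and 0.235 CPM in control Tconv cells, and Klra8 had no read in any Tconv library. In TFH cells Prf1 averaged 42.4 CPM in treated and 1.97 CPM in control libraries, Gzma 6.58 CPM in treated and 1.70 CPM in control libraries and Cd8b1 3.00 CPM in treated and 0.0227 CPM in control libraries, while Cd8a, Ncr1 and Klra8 had no read in any TFH library. In Treg cells the list summed to 34.2 to 34.9 CPM in treated and 13.9 to 22.3 CPM in control libraries, in TFH cells to 48.3 to 60.3 CPM in treated and 2.43 to 5.31 CPM in control libraries, and in TFR cells to 49.3 to 59.9 CPM in treated and 7.46 to 12.7 CPM in control libraries. The part of such cells in the member values was not tested.

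Il1rl1, the IL-33 receptor, separated regulatory from other cells. Treg libraries had 74.8, 74.2 and 74.1 CPM when treated and 80.4, 68.8 and 75.05 CPM in controls, and TFR libraries had 64.3, 75.6 and 65.6 CPM when treated and 90.1, 57.1 and 65.0 CPM in controls. These 4 groups overlapped one another, and every other library was at or below 7.30 CPM. Treated Tconv libraries had 1.46, 1.93 and 2.34 CPM, against 0.795, 0.963 and 0.254 CPM in control Tconv libraries. In TFH cells Il1rl1 had 2.76, 0.770 and 0.635 CPM in treated libraries and 7.30, 0 and 4.02 CPM in control libraries, so the groups overlapped. Neither treatment contrast passed: the log2 fold changes were 1.52 ± 0.58 in Tconv (adjusted p = 0.10) and -1.58 ± 0.57 in TFH cells (adjusted p = 0.052, edgeR), the TFH contrast passing in 5 other fits. It was -2.58 without treated TFH 1 (adjusted p = 0.0058), -1.97 without control TFH 2 (adjusted p = 0.0061) and -0.96 without control TFH 1 (adjusted p = 0.25). Il1rl1 is also expressed by innate lymphoid cells of group 2 and mast cells, and markers of those cells and basophils summed to 14.6 to 38.1 CPM in treated and 34.8 to 65.7 CPM in control TFH libraries, with reads for 4 to 6 of 8 genes in treated and 1 to 3 of 8 in control libraries. Their part in the TFH values was not tested. Treg cells exceeded Tconv cells by log2 fold changes of 5.28 ± 0.59 in treated (adjusted p = 9.9e-07) and 6.81 ± 0.65 in control mice (adjusted p = 1.3e-07), and TFR cells exceeded TFH cells by 5.61 ± 0.61 in treated (adjusted p = 1.7e-06) and 4.08 ± 0.58 in control mice (adjusted p = 0.00011), all by edgeR. None of these 4 calls was lost in any alternative.

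Il1r1, the signalling IL-1 receptor, had its highest levels in treated TFH libraries. It had 16.2, 14.2 and 13.9 CPM in treated TFH libraries, against 0.695, 0 and 4.15 CPM in control TFH libraries. The groups did not overlap, the log2 fold change was 3.08 ± 1.25, and the adjusted p of 0.079 by edgeR did not pass. It passed by DESeq2 (adjusted p = 0.011) and, at 5.15, without control TFH 3 (adjusted p = 0.022), the control library that carried most of the reads. TFR libraries had 3.73, 3.97 and 2.97 CPM when treated and 0.194, 1.42 and 0 CPM in controls. Here too every treated library was above every control library, with a log2 fold change of 2.66 ± 1.26 and an adjusted p of 0.14 by edgeR. The log2 fold change of treated TFR against treated TFH cells was -2.05 ± 1.2, without overlap, and did not pass (adjusted p = 0.42, edgeR). In Treg and Tconv cells no library exceeded 1.39 CPM under either treatment. Treated TFH cells exceeded treated Tconv cells by a log2 fold change of 4.74 ± 1.34 (adjusted p = 0.016, edgeR), a call lost without any treated Tconv library (adjusted p 0.068 to 0.082), while the same contrast in control mice was 0.99 ± 1.18 (adjusted p = 0.55), and the difference between them was 3.75 ± 1.69 (adjusted p = 0.12).

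Il1r2, the decoy, had 135, 140 and 132 CPM in treated Treg libraries, against 19.5, 23.6 and 21.7 CPM in control Treg libraries. Treated libraries stood far above control ones, and Il1r2 rose with a log2 fold change of 2.65 ± 0.50 (adjusted p = 0.0011, edgeR). TFR libraries had 233, 272 and 264 CPM when treated and 65.6, 91.9 and 66.1 CPM in controls, the highest levels of the gene in the series. It rose there by a log2 fold change of 1.78 ± 0.49 (adjusted p = 0.012, edgeR). Neither call was lost in any alternative. TFH libraries had 41.9, 29.9 and 27.6 CPM when treated, against 10.4, 8.89 and 11.98 CPM in controls. Again the groups lay apart, and the rise, 1.64 ± 0.52 on the log2 scale (adjusted p = 0.028, edgeR), was lost under voom (adjusted p = 0.24) and without treated TFH 1 or any control TFH library (adjusted p 0.053 to 0.094). Tconv libraries were lowest, at 5.32, 3.14 and 4.62 CPM when treated and 0.795, 3.03 and 0 CPM in controls. The highest control library, Tconv 2, came close to the lowest treated one, and Tconv 1 and 2 are the control libraries with kidney transcripts. The Tconv rise of 1.79 ± 0.56 (adjusted p = 0.044, edgeR) was lost under relative log expression factors (adjusted p = 0.069), in the fit of the Tconv groups alone (adjusted p = 0.31) and without control Tconv 1 or any treated Tconv library (adjusted p 0.058 to 0.17). Markers of neutrophils, a possible source of Il1r2, summed to at most 3.79 CPM in any library. B cell markers summed to 45.8 to 46.2 CPM in treated and 9.39 to 11.3 CPM in control Treg libraries. In TFR libraries they summed to 54.1 to 65.5 CPM in treated and 4.55 to 33.6 CPM in controls. Treated and control B cell sums overlapped in Tconv and TFH cells. Macrophage and dendritic cell markers summed to 5.80 to 83.4 CPM over all libraries. The part of such cells in the Il1r2 values was not tested.

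**Figure D2:**
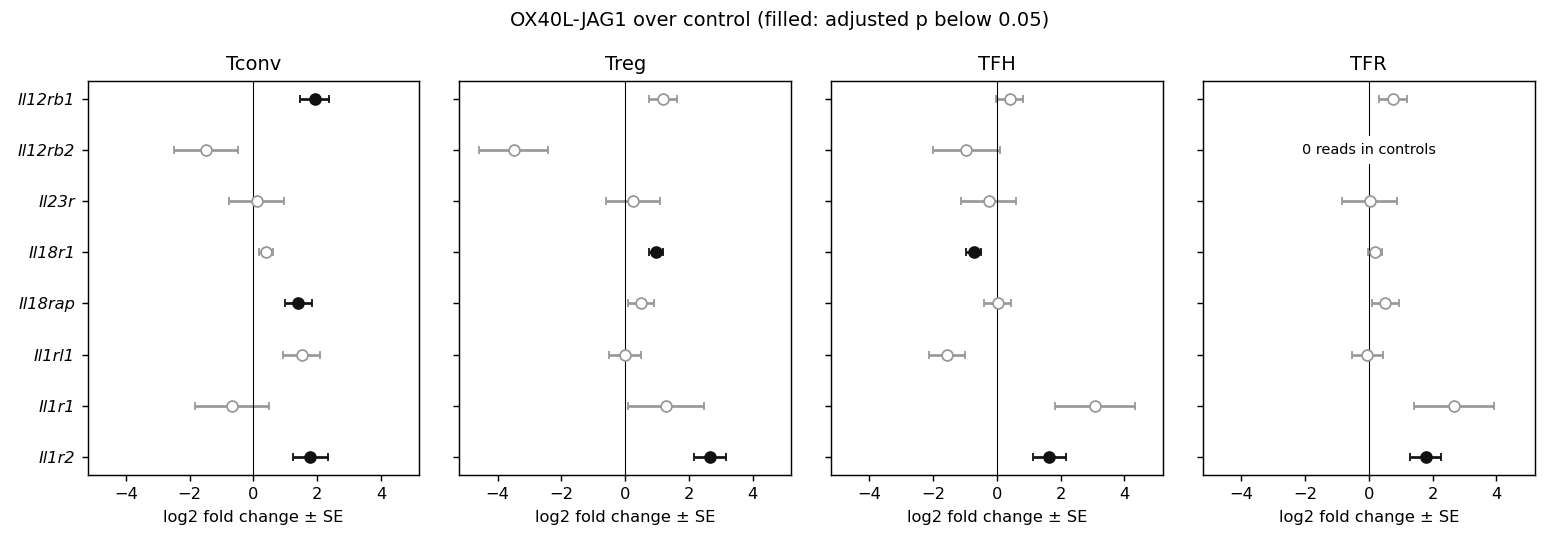
Log2 fold change of OX40L-JAG1 over control for each member, with 1 panel per subset and bars of 1 SE from the edgeR fit of all 24 libraries. Filled points passed the adjusted p threshold of 0.05, among them Il1r2 in all 4 panels. Il12rb2 in TFR cells passed but is not drawn because control libraries had no read.

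Read together, 3 of the 8 members passed the test of treatment in Tconv cells, all higher, where 9.94% of all tested genes passed, 6.89% higher and 3.05% lower. In Treg cells 2 of 8 passed, both higher, against 8.73% of all genes, 5.17% higher and 3.56% lower. In TFH cells 1 rose and 1 fell, against 22.4% of all genes, 16.5% higher and 5.86% lower. In TFR cells 2 of 8 rose, against 22% of all genes, 15.6% higher and 6.39% lower. The TFH and TFR counts are therefore near the background. Ranges without overlap were found for 6 members in Tconv, 5 in Treg, 3 in TFH and 4 in TFR cells, against 43%, 46.4%, 35.3% and 43.3% of all tested genes. The median log2 fold change of the members was 0.90 in Tconv, 0.73 in Treg, -0.12 in TFH and 0.64 in TFR cells, where that over all genes was 0.02, 0.09, 0.42 and 0.40. Il12rb2 at its bound in TFR cells leaves that median at 0.64.

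Treatment effects were also compared between subsets. For Il18r1 the effect in TFH cells was lower than in Tconv cells by 1.14 ± 0.32 on the log2 scale (adjusted p = 0.021, edgeR), and for Il1rl1 by 3.10 ± 0.81 (adjusted p = 0.015), so 2 of 8 members differed where 19.6% of all genes did (14.4% higher and 5.22% lower). Both calls were lost without the libraries holding tubule markers and in the fit of those groups alone. The Il18r1 call was also lost without the kidney libraries and without control TFH 3 (-0.63), treated TFH 3 (-1.02) or control Tconv 2 (-1.06), and the Il1rl1 call under voom. For Il12rb2 the effect in TFR cells exceeded that in TFH cells (adjusted p = 0.045) and in Treg cells (adjusted p = 0.0068), 1 of 8 members in each against 7.05% and 7.49% of all genes. Both of these rest on control TFR libraries without a read, so their fitted sizes are no measure of the difference. The TFR against TFH call was lost in 13 of 20 other fits, among them voom (adjusted p = 0.45), the replicate block (adjusted p = 0.063), without the kidney libraries (adjusted p = 0.089) and without control TFH 3 (adjusted p = 1), while the TFR against Treg call was lost in 0 of 20. Il1r2 did not pass in any of the 4 differences. Between Treg and Tconv cells its effects differed by 0.87 ± 0.73 (adjusted p = 0.70), and between TFR and TFH cells by 0.15 ± 0.70 (adjusted p = 1), so effects of like size were not shown to differ and were not shown to be equal. No member passed between Treg and Tconv cells by edgeR, where 2.68% of all genes did (0.883% higher and 1.8% lower). Members with an unadjusted p below 0.05 numbered 0. By voom 4 members passed, where 37.1% of all genes did, and by DESeq2 0, where 7.92% did.

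Differences between subsets within 1 treatment share libraries with the treatment contrasts and are given as their own values. Between Treg and Tconv cells, 5 of 8 members were higher in treated mice, against 11.9% of all genes (6.37% higher and 5.54% lower). In control mice 5 of 8 were higher, against 9.3% of all genes (5.9% higher and 3.4% lower). Treg and Tconv ranges did not overlap for 7 members under either treatment, against 57.9% of all genes in treated and 35% in control mice. The 5 that passed were Il12rb1, Il18r1, Il18rap, Il1rl1 and Il1r2 under either treatment. Il1r2 exceeded Tconv levels by log2 fold changes of 4.96 ± 0.56 in treated and 4.09 ± 0.57 in control mice, and Il18rap by 2.33 ± 0.44 in treated and 3.24 ± 0.46 in control mice, each past the edgeR threshold. The Il18r1 difference in control mice, 0.79 ± 0.23, was lost without control Tconv 1, control Tconv 2 or any control Treg library (adjusted p 0.056 to 0.12) and without the kidney libraries (adjusted p = 0.51). Between TFR and TFH cells, 3 of 8 were higher in treated mice (9.57% of all genes, 4.61% higher and 4.96% lower), namely Il18r1, Il1rl1 and Il1r2. In control mice Il1rl1 and Il1r2 were higher and Il12rb2 lower (15.8% of all genes, 7.82% higher and 8% lower). That share was 0.341% under voom and 0.564% in the fit of those groups alone. Il12rb2 had no read in control TFR libraries and in 2 of 3 control TFH libraries; set against 3 reads over the group it was at least 14-fold lower, and without control TFH 3 neither group had a read. The call was also lost under voom (adjusted p = 0.88), without control TFR 1 or control TFR 2 (adjusted p 0.059 to 0.062) and without the libraries holding tubule markers (adjusted p = 0.051). Between TFH and Tconv cells, 4 members were higher and Il18r1 lower in treated mice (18.1% of all genes, 10.3% higher and 7.77% lower), and 6 had ranges without overlap, against 54.9% of all genes. In control mice 5 were higher and Il12rb2 lower (25% of all genes, 9.89% higher and 15.1% lower), and 4 had ranges without overlap, against 35% of all genes. In the fit of those groups alone 1 member passed, where 11.9% of all genes did. Between TFR and Treg cells Il18r1 was lower in treated mice, by 1.54 ± 0.23 on the log2 scale (adjusted p = 0.00018), where 4.61% of all genes passed (1.78% higher and 2.83% lower), and 5 members had ranges without overlap, against 46.3% of all genes. In control mice, where 9.75% of all genes passed (2.28% higher and 7.46% lower), Il18r1 and Il12rb2 were lower in TFR cells and Il1r2 was higher, by 1.79 ± 0.49 (adjusted p = 0.024, edgeR). Against control Treg cells Il12rb2 was at least 264-fold lower. The Il18r1 call was lost without any control Treg library, control TFR 2 or control TFR 3 (adjusted p 0.063 to 0.14), under voom (adjusted p = 0.067), in the fit of those groups alone (adjusted p = 0.091) and without the libraries holding tubule markers (adjusted p = 0.057), and the Il1r2 call without any control Treg library or control TFR 2 (adjusted p 0.067 to 0.093).

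The chains of a receptor were compared per length, as ratios of CPM per kb of exon. Il12rb1 over Il12rb2 was 0.868 to 2.03 in treated Tconv libraries, against 0.109 to 0.147 in control Tconv libraries, and 7.78 to 10.4 in treated Treg libraries, against 0.255 to 0.615 in control Treg libraries. By these values the IL-12-specific chain was the more abundant one in control Tconv and control Treg cells, and the shared chain was in treated Treg cells. The exon length of Il12rb2 includes the 1519 bases shared with Serbp1, so these ratios are uncertain. In control TFH cells the ratio of group means was 20.9, with Il12rb2 reads in a single library, and control TFR cells had no Il12rb2 read. Il18r1 over its accessory chain Il18rap was 9.09 to 9.16 in treated and 16.2 to 19.8 in control Tconv libraries, and 4.53 to 4.74 in treated and 3.20 to 3.62 in control Treg libraries. The ligand-binding chain was the more abundant in every library, with the ratio lower with treatment in Tconv and higher in Treg cells, without overlap in either. Il1r2 over Il1r1 was 570 to 1075 in treated Treg, 208 to 297 in treated TFR, 16.1 to 46.9 in treated Tconv and 6.61 to 8.64 in treated TFH libraries. The decoy chain was therefore above the signalling chain in each treated library, by least in TFH cells. As ratios of group means, it was 676.5 in treated and 264 in control Treg cells, and 26.6 and 4.86 in Tconv cells. In TFR cells it was 240 in treated and 463 in control cells, and in TFH cells 7.49 and 21.5. The ratio was thus lower with treatment in both follicular subsets. Control values rest on few Il1r1 reads, 15 in TFR, 22 in Treg, 65 in TFH and 70 in Tconv cells. No test was run on these ratios.

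**Figure D3:**
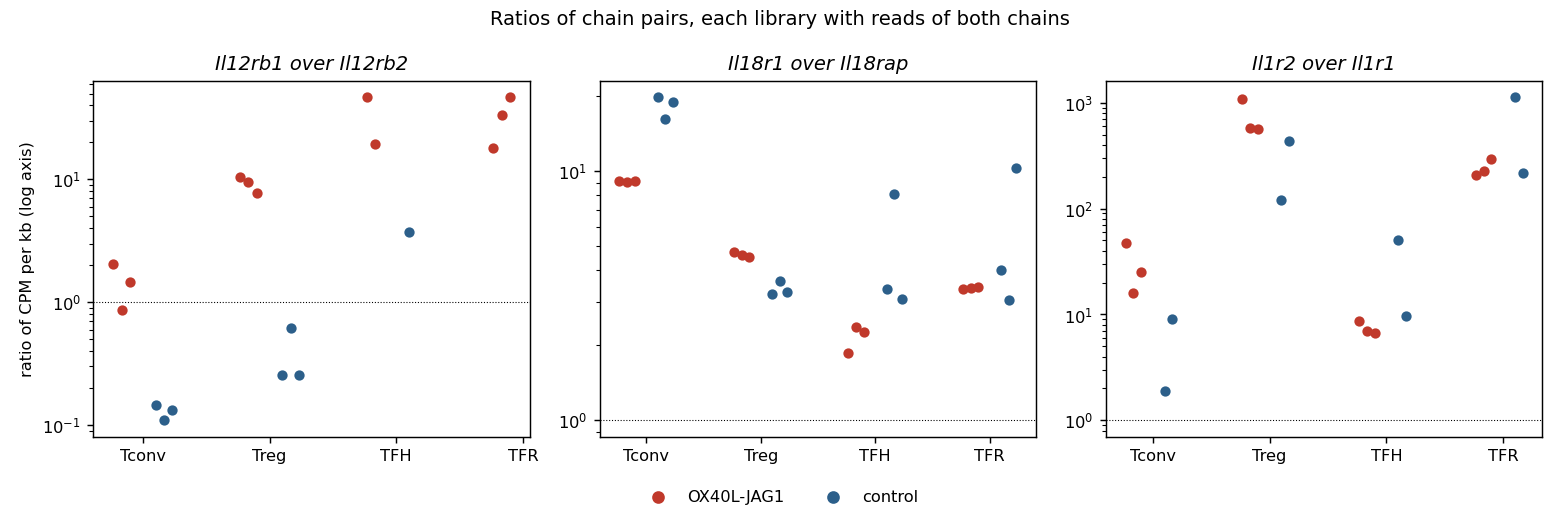
Ratio of CPM per kb of exon for 3 pairs of chains in each library with reads of both, on a log axis, OX40L-JAG1 left of control. The dotted line marks equal levels. Il12rb1 over Il12rb2 lies at 7.78 to 10.4 in treated and 0.255 to 0.615 in control Treg libraries.

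Along the chromosome 1 run, neighbouring genes had unlike levels. Per kb of exon, treated TFR cells held 134 CPM of Il1r2 and 0.559 CPM of Il1r1, and control TFR cells 39.1 CPM of Il1r2 and 0.0843 CPM of Il1r1. Il1rl1 and Il18r1 lie next to each other on the same strand. In treated Tconv cells they stood at 0.277 and 31.0 CPM per kb, in control Tconv cells at 0.0973 and 23.4 CPM per kb. Il1rl2, the IL-36 receptor chain inside the run, averaged 35.3 CPM in treated and 27.0 CPM in control Tconv cells, its highest groups, and passed no test of treatment, with adjusted p-values from 0.18 to 0.95. Map4k4, the kinase gene before the run, fell in TFR cells by 0.41 ± 0.09 on the log2 scale (adjusted p = 0.0017, edgeR). Its log2 fold change was 0.05 in Tconv, -0.28 in Treg and -0.09 in TFH cells (adjusted p = 0.82, 0.05 and 0.49, edgeR). Il1r2 rose in all 4 subsets.

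**Figure D4:**
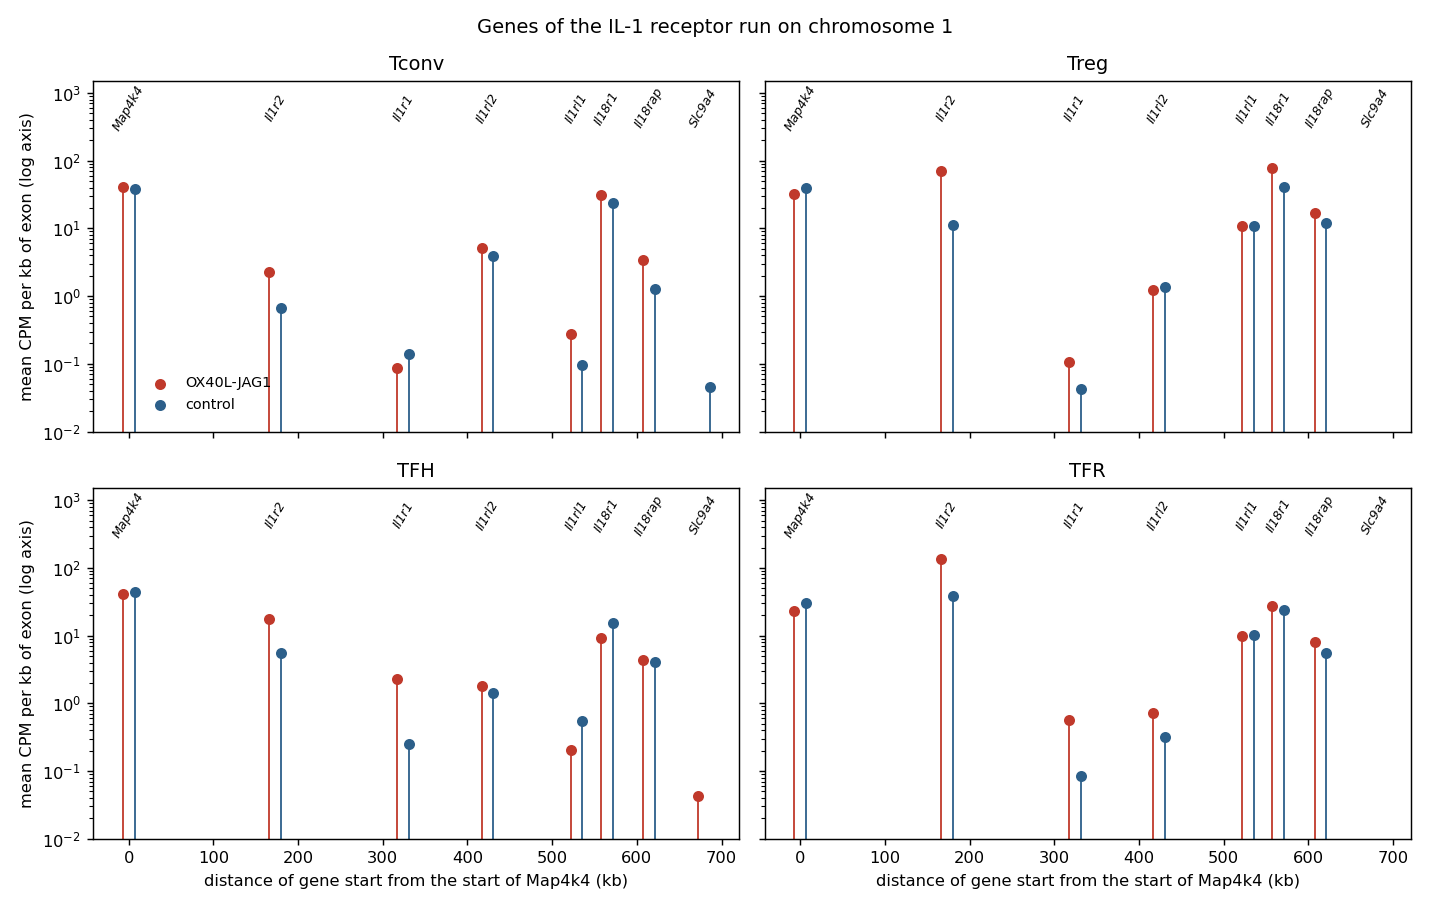
Mean CPM per kb of exon (log axis, 3 libraries a group) of the genes of the chromosome 1 run against the distance of their starts from Map4k4, in 4 subsets, OX40L-JAG1 left of control. Values below 0.01 are not drawn. Il1r2 is at 134 in treated and 39.1 in control TFR cells, while Il1r1 is lowest or next to lowest of the members in each group.

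Over the 8 group means of log2 CPM, centred on each gene's own mean, the member pair most alike was Il18r1 and Il18rap (root mean square difference 0.892), followed by Il12rb1 and Il23r (0.909). The median protein-coding gene averaging 5 CPM or more was at 0.941 from Il18r1 and 1.16 from Il18rap. The 2 IL-18 receptor chains were thus little closer to each other than the median gene was to Il18r1. For Il12rb1 and Il23r the medians were 1.43 and 1.32. The pair least alike was Il12rb2 and Il1r2 (4.57). Among 9672 or, for Il23r and Il1r1, 9673 protein-coding genes averaging 5 CPM or more, the nearest to Il1r2 were the proliferation gene Mki67 (0.635), Ttn (0.780) and the cell cycle factor E2f8 (0.781), where the median gene was at 2.70. The nearest to Il1rl1 was Foxp3 (1.11), followed by Atp6v0d2 (1.13) and Matn2 (1.31), against a median of 3.00. Il12rb1 was nearest to Bhlhe40 (0.225), a transcription factor of activated T cells, then Cd38 (0.315) and Naip2 (0.339). Il18r1 had Iigp1 (0.383), an interferon-induced GTPase, Ift80 (0.438) and Tmem154 (0.443), and Il18rap had Rgs1 (0.456), Gna15 (0.492) and Sh3bgrl (0.493). For Il23r these were Tnfsf14 (0.383), Angptl2 (0.473) and Pcgf2 (0.482), and for Il1r1 Jchain (0.843), Rasd1 (0.888) and Baiap3 (0.906). Il12rb2 had no close match, with Irak3 nearest at 1.48, then Zbtb16 at 1.57 and Zfp637 at 1.61. These distances describe group means that share libraries and depth, and they carry no test.

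Of 5 tested partner chains, 2 rose in Tconv and 1 in Treg cells, and 1 rose and 1 fell in TFH and in TFR cells. The shares of all tested genes that passed, in either direction, were 9.94% in Tconv, 8.73% in Treg, 22.4% in TFH and 22% in TFR cells. The medians over all tested genes were 0.02 in Tconv, 0.09 in Treg, 0.42 in TFH and 0.40 in TFR cells, and the counts and medians of the lists below stand beside these. Il27ra, the IL-27 receptor chain, rose in each subset. It averaged 186 CPM in treated and 96.4 CPM in control Tconv cells, 180 CPM in treated and 79.7 CPM in control Treg cells, 162 CPM in treated and 82.2 CPM in control TFH cells, and 155 CPM in treated and 48.7 CPM in control TFR cells. The Tconv rise was lost without the kidney libraries (adjusted p = 0.062) and without those holding tubule markers (adjusted p = 0.08). Il6st, the signalling chain gp130, fell to 299 CPM in treated against 452 CPM in control TFH cells and to 237 CPM in treated against 374 CPM in control TFR cells (adjusted p = 0.00022 and 6.0e-05, edgeR). Il1rap, the accessory chain of Il1r1 and Il1rl1, passed in no subset, with means of 15.7 to 20.9 CPM in treated and 10.4 to 21.7 CPM in control groups. The median log2 fold change of partner chains was 0.51 in Tconv, -0.05 in Treg, 0.70 in TFH and -0.12 in TFR cells. Of 7 tested ligands and soluble decoys none passed in Tconv or Treg cells by edgeR. In TFH cells 1 rose (Il18, with no read in controls), and in TFR cells Il23a rose, also from no read in controls, while Il18bp, the soluble IL-18 binding protein, fell to 3.78 CPM in treated against 12.2 CPM in control cells (adjusted p = 0.020). The Il18bp call was lost in 8 of 14 other fits (adjusted p 0.05 to 0.16), including those without the kidney libraries and without any treated TFR library. Il18 and Il23a lie outside the rule for named genes and were chosen after their values were seen. With genes that had no read in a group set at their bound, the list's medians were -1.25 in Tconv, 1.86 in Treg, 0.12 in TFH and 0.73 in TFR cells.

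Among 10 kinases, STAT and SOCS genes that serve the IL-12 side, 3 rose in Tconv cells (9.94% of all genes passed), 2 fell in Treg cells (8.73%), and 2 rose and 3 fell in both TFH (22.4%) and TFR cells (22%). Stat4, the main STAT of the IL-12 receptor, fell to 103 CPM in treated against 207 CPM in control TFH cells and to 104 CPM in treated against 266 CPM in control TFR cells (adjusted p = 0.00037 and 1.3e-05, edgeR), the TFH call being lost in the fit of the TFH groups alone (adjusted p = 0.067). Jak2, the kinase bound by Il12rb2 and Il23r, fell to 490 CPM in treated against 855 CPM in control Treg cells (adjusted p = 1.5e-06). The feedback inhibitor Socs3 rose to 184 CPM in treated against 69.1 CPM in control Tconv cells and to 296 CPM in treated against 127 CPM in control TFH cells, and Cish to 214 CPM in treated against 103 CPM in control TFR cells. The list's median log2 fold change was 0.27 in Tconv, -0.03 in Treg, -0.26 in TFH and 0.25 in TFR cells, against 0.02, 0.09, 0.42 and 0.40 over all genes. Of 15 adaptors and brakes on the IL-1 side, 4 rose in Tconv cells, 2 rose and 1 fell in Treg, 5 rose and 1 fell in TFH, and 3 rose and 2 fell in TFR cells, beside the same shares of all genes. Nfkbiz, an NF-κB cofactor induced by IL-1 signalling, rose to 540 CPM in treated against 161 CPM in control Tconv cells and to 575 CPM in treated against 281 CPM in control Treg cells. Irak2 fell to 39.7 CPM in treated against 83.4 CPM in control Treg cells, and Traf6, the ubiquitin ligase after the IRAK kinases, to 124 CPM in treated against 194 CPM in control TFR cells. In TFH cells Irak4 rose to 24.4 CPM in treated against 8.67 CPM in control cells while Tab2 fell to 165 CPM in treated against 209 CPM in control cells. Both calls were lost under voom, in the fit of the TFH groups alone and without the libraries holding tubule markers (adjusted p 0.064 to 0.26). The Tab2 call was also lost without the kidney libraries (adjusted p = 0.11) and without treated TFH 3 (adjusted p = 0.06). In TFR cells the inhibitor Nfkbia rose to 1957 CPM in treated against 1376 CPM in control cells. The medians of this list were 0.33 in Tconv, -0.04 in Treg, 0.15 in TFH and -0.0037 in TFR cells.

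Of 20 lineage genes that these cytokines are known to act on, 6 rose in Tconv cells (9.94% of all genes passed), 5 rose and 2 fell in Treg (8.73%), 7 rose and 1 fell in TFH (22.4%), and 10 rose and 1 fell in TFR cells (22%). Ifng, the hallmark response to IL-12 and IL-18, rose to 42.8 ± 0.7 CPM in treated against 2.10 ± 1.07 CPM in control Tconv cells (SD, n = 3 each). Its log2 fold change there was 4.33 (adjusted p = 2.9e-10 by edgeR). Ifng passed as higher in the other subsets too. It averaged 109 CPM in treated against 28.5 CPM in control TFH cells (adjusted p = 7.4e-06, edgeR). The means were 56.8 against 24.3 CPM in TFR (adjusted p = 0.00083) and 46.6 against 27.5 CPM in Treg cells (adjusted p = 0.048, edgeR). Eomes, a T-box factor of cytotoxic and IFN-γ-producing cells, rose to 56.9 CPM in treated against 8.09 CPM in control Treg cells, to 538 CPM in treated against 41.3 CPM in control TFH cells and to 209 CPM in treated against 19.5 CPM in control TFR cells. The T-box factor Tbx21, outside the rule for named genes, passed in no subset (adjusted p 0.061 to 0.98, edgeR). Its log2 fold changes were 1.74 in Tconv, -0.09 in Treg, -0.25 in TFH and -0.34 in TFR cells. Il10, an anti-inflammatory cytokine, fell to 56.5 CPM in treated against 100.3 CPM in control Treg cells (adjusted p = 0.022, edgeR), a call lost without any treated Treg library, control Treg 1 or control Treg 2 (adjusted p 0.065 to 0.094) and without the libraries holding tubule markers (adjusted p = 0.1). Rora, a nuclear receptor, fell to 492 CPM in treated against 908 CPM in control TFH cells and to 641 CPM in treated against 1033 CPM in control TFR cells. With genes that had no read in a group set at their bound, the list's median log2 fold change was 0.92 in Tconv, 0.51 in Treg, 0.72 in TFH and 1.22 in TFR cells, where the medians of all genes were 0.02, 0.09, 0.42 and 0.40.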

How the data were processed

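Total RNA (RNeasy kit, DNase step) was sequenced as CORALL libraries after RiboCop removal of rRNA, per the labels' protocols. The submitters' processing notes name STAR, featureCounts and mm10. Tool versions, annotation release and strand setting: not given in the sources used here. A single table of unnormalized counts per Ensembl gene was deposited for all libraries. Symbols, exon lengths and coordinates come from GENCODE M21 (mm10, GRCm38), which matched 38872 of 39056 IDs and left 184 unmatched.

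The test ran in R 4.3.3 with edgeR 4.0.16, using filterByExpr by group, TMM factors, 1 model of 8 group means over 24 libraries, and the two-sided quasi-likelihood F test, adjusted by Benjamini-Hochberg over all 18789 genes with a threshold of 0.05. The 16 comparisons were 4 of treatment, 8 between subsets and 4 differences of treatment effects. The common biological coefficient of variation was 0.617, while estimates per group spanned 0.075 (treated Tconv) to 1.05 (control TFH). A shared estimate is thus wide for the tight groups and narrow for the noisy ones, such as control TFH and control TFR (0.927) cells. No 2 libraries of a group were as alike as counting error alone would make them (chi-square over degrees of freedom at least 4.72), and none were merged.

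The members, gene lists and tests were chosen with earlier results of these data known. Named pathway genes are, per list and treatment comparison, the genes that changed most in each direction among those that passed without overlap of the groups and with at least 5 CPM in the higher group. To these the rule adds the 3 nearest profiles of each member (log2 CPM with a prior count of 2) and the flanking genes. Where a group had no read, a fold was set against 3 reads over the group.

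The fits were repeated with DESeq2 1.42.0, voom with quality weights in limma 3.58.1, scaling by relative log expression, every gene kept, the replicate number as a block, only the groups compared, leaving out each library, and leaving out 4 libraries with kidney transcripts (podocyte markers over 10 CPM and at least 10 times the lowest of the group). A fit without the 5 libraries whose proximal tubule markers exceed 50 CPM was added after seeing the data, because the podocyte rule left in treated Treg 3.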

Additional observations from a re-analysis of the deposited data

Results flagged for a closer look

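For 3 members a test of the difference in treatment effect between subsets passed in the edgeR fit of all libraries, and 3 of the 4 calls were lost in some other fits. Il18r1 had a lower effect in TFH than in Tconv cells (log2 difference -1.14, adjusted p = 0.021 by edgeR, lost in 6 other fits), and Il1rl1 likewise (-3.10, adjusted p = 0.015, lost in 3). For Il12rb2 the fitted difference was 8.85 between TFR and TFH cells (adjusted p = 0.045, lost in 13 of 20 other fits) and 11.4 between TFR and Treg cells (adjusted p = 0.0068, lost in 0 of 20), but with no read in the control TFR libraries these fitted sizes depend on the model's prior and bound nothing.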

How the results depend on the processing

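For treatment, the 3 calls in Tconv became 1 under relative log expression factors, 6 under voom, and 1 without the kidney libraries or without the libraries with tubule markers. The 2 calls in Treg became 4 under DESeq2 and 5 under voom and in the fit of only the groups compared. The 2 in TFH became 4 under DESeq2, 0 under voom, and 1 without the kidney libraries, without the tubule libraries and in the fit of only the groups compared. The 2 in TFR became 1 under voom and without the kidney or tubule libraries. Leaving out 1 library gave 1 to 2 calls in Tconv, 2 in Treg, 1 to 3 in TFH and 1 to 3 in TFR cells. The share of all genes that passed differed between fits as well. Under voom it was 55.9% in Tconv, 34.6% in Treg, 7.31% in TFH and 15% in TFR cells. By DESeq2 it was 18.1% in Tconv, 14.1% in Treg, 31.9% in TFH and 32.6% in TFR cells. With only the groups compared it was 36.8% in Tconv, 40.9% in Treg, 11.5% in TFH and 21% in TFR cells. Under relative log expression factors it was 9.62% in Tconv cells.

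Between control subsets, the 5 calls of Treg against Tconv became 8 under voom, and the 3 of TFR against TFH became 1. Under voom 42.1% of all genes passed in the former and 0.341% in the latter. The 6 of TFH against Tconv became 3 without the kidney or tubule libraries and 1 in the fit of only the groups compared. Leaving out 1 library gave 1 to 3 calls for control TFR against control Treg and 3 to 5 for treated TFH against treated Tconv. In treated mice the 3 calls of TFR against TFH became 5 under voom and in the fit of only those groups. Of all genes, 32.5% passed under voom and 28.3% in the fit of only those groups. The 1 call of TFR against Treg became 5 under both and 2 without the kidney libraries. There 41.3% of all genes passed under both and 2.74% without the kidney libraries. For differences of effects, the 0 calls between Treg and Tconv became 4 under voom and with only those groups, and 1 without the kidney or tubule libraries, and ran from 0 to 1 with 1 library left out. The 1 between TFR and TFH became 2 under DESeq2 and 0 under voom, in the replicate block and without the kidney or tubule libraries and with only those groups, and ran from 0 to 2. The 2 between TFH and Tconv became 1 without the tubule libraries and 0 with only those groups, and ran from 1 to 4. The 1 between TFR and Treg became 2 under voom and 3 with only those groups. Of all genes, 37.1% passed under voom and 18.2% with only those groups for Treg against Tconv effects. For TFR against TFH effects 18.2% passed by DESeq2, 0.245% under voom, 4.92% in the replicate block and 0.53% with only those groups. With only those groups 14.4% passed for TFH against Tconv effects. For TFR against Treg effects 7.08% passed under voom and 15% with only those groups.

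Il1r2 reversed between Treg and Tconv effects, to -7.30 without the kidney and -7.25 without the tubule libraries, where the 1 control Tconv library left had no Il1r2 read. Il12rb2 in control TFR against control TFH became 0 without control TFH 3, when neither group had a read, and ran from -8.56 to 0 with 1 library left out. Under relative log expression factors the median of all genes for the Treg against Tconv effect was 0.10, against -0.02 under TMM. Between treated and control libraries of the same subset, deviations of same-numbered libraries correlated at -0.136 to 0.167, above 0.1 in 2 of 12 pairs. Same-numbered libraries of different subsets within a treatment were not compared, so pairing between subsets was not tested. With the replicate block the counts for treatment were 2 in Tconv, 2 in Treg, 3 in TFH and 2 in TFR. The shares of all genes were then 9.55% in Tconv, 7.88% in Treg, 20.1% in TFH and 20.2% in TFR cells. The cause of these shifts was not tested. Control TFH and TFR libraries, at 2.54 to 15.2 M counts, limit what can be said of Il12rb2, Il23r and Il1r1 there.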
